A study of Mus musculus with 12 samples.

Results

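The Wnt-driven pericentral genes are 10 genes of the liver lobule that depend on beta-catenin, Glul, Oat, Slc1a2, Rhbg, Cyp2e1, Lect2, Tbx3, Axin2, Notum and Nkd1. Their members were taken by gene symbol from the array annotation, which gave 13 probe sets of 22626 for all 10 genes, of 12393 genes measured. Glul, Axin2 and Tbx3 had 2 probe sets each and the other 7 genes had 1. The study profiled hepatocytes, which do most of the liver's metabolic work, and a fraction called mesenchymal cells from livers of male C57BL/6N mice that were 12 weeks old. The 12 Affymetrix 3′ arrays formed 4 groups of 3: hepatocytes of phenobarbital mice, hepatocytes of vehicle mice, mesenchymal cells of phenobarbital mice and mesenchymal cells of vehicle mice. Phenobarbital, a sedative that works in the liver through the nuclear receptor CAR, was given at 50 mg/kg per day in drinking water over 14 days, and the vehicle mice drank water without it (0 mg/kg). The mice carried no engineered allele according to the labels. The labels number the samples within a group but give neither the animals behind a sample nor the way the cells were isolated, and every p-value therefore reflects sample-to-sample spread that may be partly technical.

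Hepatocytes around the central vein receive Wnt ligands from endothelial cells of that vein. Wnt binding stabilises beta-catenin, which joins TCF/LEF factors on DNA and turns on genes that hepatocytes near the portal vein keep low. The pericentral cells thereby take up ammonium and glutamate that escape the periportal urea cycle and fix them as glutamine, and they carry P450 enzymes that activate many drugs and toxins. Several of the target genes encode inhibitors of the pathway itself and so form a negative feedback.

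Promoter windows of 300 bases (250 before to 50 after the transcription start) were available from RefSeq on build GRCm38.p6 for 7 of the members, all but Rhbg, Tbx3 and Notum. The letters CTTTGAT, the core that TCF/LEF factors recognise, were searched on both strands, where the opposite strand reads ATCAAAG. They stood once in the windows of Slc1a2 and Lect2 and not in those of Glul, Oat, Cyp2e1, Axin2 and Nkd1, and 3.73% of the 32851 windows in the RefSeq table held them. The Slc1a2 match began 207 bases and the Lect2 match 32 bases before the start, both on the strand opposite to the gene. Start here means the start that the RefSeq window uses. For Slc1a2 it lies 48199 bases inside the annotated gene, for Nkd1 6291 and for Axin2 2521, so those windows belong to internal starts, whereas the Glul, Oat and Cyp2e1 windows lie at the outermost start and that of Lect2 21 bases inside it. Both windows with a match are shown with those of Glul and Oat, because Slc1a2, Glul and Oat had hepatocyte groups that did not overlap whereas those of Lect2 did; capitals mark the match. A match is a run of letters and no binding was measured. The windows lie at chr2:102706188-102706487 on the plus strand (Slc1a2), chr13:56548489-56548788 on the minus strand (Lect2), chr1:153899679-153899978 on the plus strand (Glul) and chr7:132576349-132576648 on the minus strand (Oat).
Slc1a2: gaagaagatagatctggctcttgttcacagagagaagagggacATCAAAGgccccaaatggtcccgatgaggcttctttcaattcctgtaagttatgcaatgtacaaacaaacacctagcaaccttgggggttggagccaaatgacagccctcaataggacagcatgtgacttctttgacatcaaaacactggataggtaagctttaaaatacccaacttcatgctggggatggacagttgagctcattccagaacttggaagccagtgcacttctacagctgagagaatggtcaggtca
Lect2: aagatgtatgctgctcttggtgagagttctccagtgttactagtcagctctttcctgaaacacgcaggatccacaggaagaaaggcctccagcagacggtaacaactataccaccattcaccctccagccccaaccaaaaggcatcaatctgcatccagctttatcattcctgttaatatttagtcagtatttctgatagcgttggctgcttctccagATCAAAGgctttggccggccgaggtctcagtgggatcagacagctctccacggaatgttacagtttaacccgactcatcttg
Glul: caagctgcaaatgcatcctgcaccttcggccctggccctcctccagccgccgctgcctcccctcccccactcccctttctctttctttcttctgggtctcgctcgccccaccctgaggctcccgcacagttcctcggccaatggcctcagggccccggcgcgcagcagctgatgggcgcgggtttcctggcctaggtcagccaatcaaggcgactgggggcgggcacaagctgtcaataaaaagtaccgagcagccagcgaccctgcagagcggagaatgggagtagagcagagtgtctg
Oat: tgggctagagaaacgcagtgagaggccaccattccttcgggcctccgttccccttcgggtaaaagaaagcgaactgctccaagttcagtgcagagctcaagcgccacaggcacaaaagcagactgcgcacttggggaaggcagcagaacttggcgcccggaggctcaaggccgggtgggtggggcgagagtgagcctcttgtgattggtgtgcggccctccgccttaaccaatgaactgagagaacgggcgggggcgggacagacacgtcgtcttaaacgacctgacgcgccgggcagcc

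The array values bore out the treatment and most of the cell labels. Cyp2b10, the classical CAR target, lay between 12.87 and 14.15 in hepatocytes of phenobarbital mice and between 7.72 and 8.01 in those of vehicle mice, on the log2 scale of RMA, a method that corrects background, equalises array distributions and summarises probes. Means over 11 hepatocyte markers lay between 14.03 and 14.13 in the hepatocyte arrays. In the mesenchymal arrays the means over 11 Kupffer cell markers ran from 13.57 to 14.01 under phenobarbital and from 13.69 to 13.86 under vehicle, and over 12 endothelial markers from 12.66 to 12.81 under phenobarbital and from 12.37 to 12.89 under vehicle. Stellate cell markers, which would define mesenchymal cells, averaged 7.63 to 8.25 there, against 5.84 to 6.05 in the hepatocyte arrays. In the mesenchymal arrays 4 of the 12 lay below the array's 40th percentile in all 6 arrays. Levels of different marker lists rest on different probe sets and do not give cell shares. The label mesenchymal is kept here as the name of the fraction, whose leading markers were those of macrophages and endothelial cells. The vehicle samples numbered 1 stood apart in the clock output gene Dbp, at 6.21 in the hepatocyte array and 6.52 in the mesenchymal array, against 11.60 to 12.15 in the other 10 arrays. Results of the tested members in hepatocytes are therefore also given without the vehicle sample numbered 1. In the other comparisons this was done for some members, and in hepatocytes for some of the other named genes.

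The first comparison asked how the pericentral genes of hepatocytes stood after phenobarbital. Of the 10 members, 7 had lower means in phenobarbital hepatocytes, where 48.1% of all genes had; in Oat, Slc1a2, Glul and Notum all 3 phenobarbital arrays lay below all 3 vehicle arrays. Such a gap in the lower direction was present in 4 of 10 members and in 6.8% of all genes measured. No member passed the test over all genes, a Benjamini-Hochberg adjusted p under 0.05 in limma, which 0.0493% of the 8117 tested genes did. A gene was tested if its highest probe set exceeded the array's 40th percentile in at least 3 arrays, and 7 members were tested: Axin2, Nkd1 and Tbx3 were too low in hepatocytes. An unadjusted p under 0.05 was reached by 4 of the 7, Oat, Slc1a2, Glul and Notum, and by 8.38% of the tested genes. Over the 10 members the median log2 difference was −0.24, against 0.01 over all genes measured. In RNA of many cells, fewer pericentral hepatocytes in a preparation and less transcript per cell cannot be told apart.

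The genes of ammonium and glutamate handling come first. Oat encodes ornithine aminotransferase, the mitochondrial enzyme that turns ornithine into a glutamate precursor. Its hepatocyte arrays read 9.71, 11.26 and 10.78 under phenobarbital and 11.41, 12.13 and 12.48 under vehicle. Phenobarbital array 1 was the lowest, and its gap to the next array was wider than the gap between the groups. The log2 difference was −1.42 (SE 0.41, 95% interval −2.37 to −0.47), which is 2.68-fold lower, with a limma adjusted p of 0.450.

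Slc1a2 encodes GLT-1, a sodium-coupled transporter that brings glutamate into the cell. It read 6.67, 5.94 and 7.16 in phenobarbital hepatocytes and 7.49, 7.57 and 8.01 in vehicle hepatocytes. Here phenobarbital array 2 was the lowest, and it lay below the 40th percentile of the hepatocyte arrays (6.54 to 6.60), where differences are rough. The difference was −1.10 (SE 0.30, 95% interval −1.79 to −0.41), or 2.15-fold lower, with a limma adjusted p of 0.433.

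Glul encodes glutamine synthetase, which joins ammonia to glutamate and in hepatocytes is restricted to the cells next to the central vein. The probe set that stands for the gene read 9.32, 9.48 and 10.02 under phenobarbital and 10.21, 10.20 and 10.74 under vehicle. The groups did not overlap, with phenobarbital array 3 closest to the vehicle arrays. The difference was −0.77 (SE 0.21, 95% interval −1.27 to −0.28), or 1.71-fold lower, with a limma adjusted p of 0.450. The other Glul probe set read 8.64, 8.78 and 9.43 under phenobarbital and 9.27, 9.34 and 9.89 under vehicle. Its groups overlapped, since phenobarbital array 3 exceeded 2 of the vehicle arrays, and its difference was −0.55 (SE 0.23).

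Rhbg, an ammonium transporter of the Rhesus family, had a narrow spread in both groups. It read 7.35, 7.60 and 7.72 in phenobarbital hepatocytes and 7.87, 7.48 and 7.70 in vehicle hepatocytes. The groups overlapped, and the difference of −0.13 had a 95% interval from −0.45 to 0.20 (limma adjusted p 0.827). The differences of Oat, Slc1a2 and Glul all lay below that interval, but the intervals of Slc1a2 and Glul overlapped it. No difference between genes was tested.

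**Figure D1:**
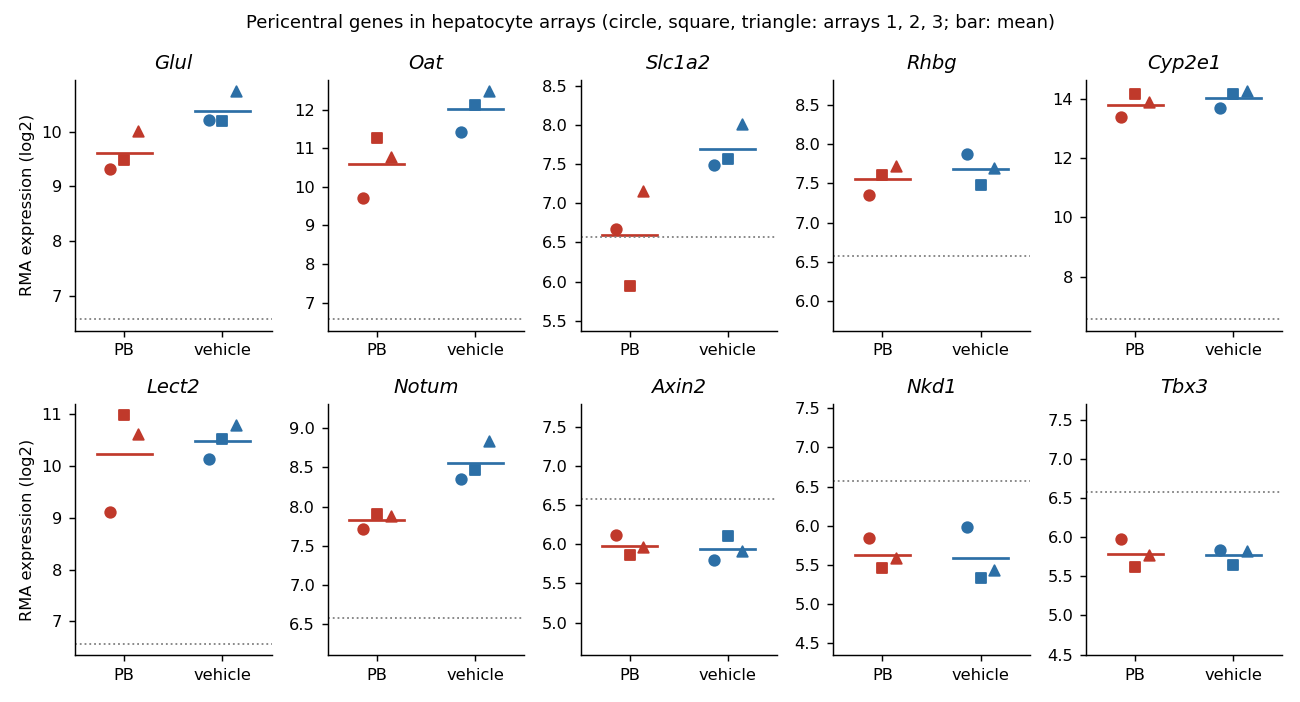
RMA expression (log2, y axis) of the 10 pericentral genes in each hepatocyte array of phenobarbital (PB, left) and vehicle mice (right), with group means as bars and the mean 40th percentile of these arrays as a dotted line. Oat, Slc1a2, Glul and Notum show no overlap between the groups, and Axin2, Nkd1 and Tbx3 lie below the dotted line.

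Cyp2e1 and Lect2 are products of the wider pericentral zone. Cyp2e1, the P450 that oxidises ethanol and activates paracetamol, read 13.37, 14.14 and 13.88 under phenobarbital and 13.67, 14.17 and 14.25 under vehicle. The groups overlapped, and these readings lie near the top of the arrays, where probe signals can saturate. The difference was −0.23 (SE 0.22, 95% interval −0.74 to 0.27; limma adjusted p 0.786). Lect2, a protein that hepatocytes secrete into blood, read 9.12, 10.98 and 10.63 under phenobarbital and 10.14, 10.52 and 10.80 under vehicle. Phenobarbital arrays lay at both ends of the order, array 1 lowest and array 2 highest. The difference was −0.24 with a 95% interval from −1.27 to 0.78 (limma adjusted p 0.900), and without phenobarbital array 1 its sign turned, to 0.32.

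Among the feedback inhibitors and transcription factors, Notum was the one that was tested in hepatocytes. Notum is a secreted enzyme that strips the lipid from Wnt ligands and so inactivates them. It read 7.71, 7.90 and 7.88 under phenobarbital and 8.35, 8.46 and 8.84 under vehicle. The phenobarbital arrays lay close together and below every vehicle array. The difference was −0.72 (SE 0.14, 95% interval −1.04 to −0.40), or 1.65-fold lower, with a limma adjusted p of 0.259, the smallest among the members and the 29th smallest p of the 8117 genes.

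The other feedback inhibitors, Axin2 and Nkd1, and the transcription factor Tbx3 read below the 40th percentile in all 6 hepatocyte arrays. Axin2, the scaffold of the complex that degrades beta-catenin, averaged 5.98 ± 0.13 under phenobarbital and 5.94 ± 0.15 under vehicle (SD, n = 3 each). Nkd1, which binds Dishevelled and dampens the signal, averaged 5.63 ± 0.19 under phenobarbital and 5.58 ± 0.35 under vehicle. Tbx3, a T-box transcription factor, averaged 5.79 ± 0.18 under phenobarbital and 5.77 ± 0.11 under vehicle. At such low readings a difference would be hard to see, and the groups overlapped in all 3 genes, also in the second probe sets of Axin2 and Tbx3. In a fit with no filter on low values their differences were 0.04, 0.05 and 0.02.

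The arrays of a group were not alike over the members. Phenobarbital array 1 was the lowest of the 6 hepatocyte arrays in 6 of the 7 tested members (all but Slc1a2), and in all 7 it lay below every vehicle array. Phenobarbital arrays 2 and 3 lay below every vehicle array in 4 members each. Vehicle array 3 was the highest of the 6 arrays in 5 of the 7. Without phenobarbital array 1 the differences of Glul, Oat, Slc1a2 and Notum were −0.63, −0.98, −1.14 and −0.66. Without vehicle array 1, the one with displaced clock genes, these were −0.86, −1.72, −1.20 and −0.82, and Cyp2e1 joined them with no overlap at −0.41. Rhbg then had −0.04 and Lect2 −0.42, both with overlapping groups. With vehicle array 1 left out 5 members lay lower without overlap, where 13.2% of the tested genes did (8.14% with all arrays), and the smallest limma adjusted p among the members was 0.213.

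**Figure D2:**
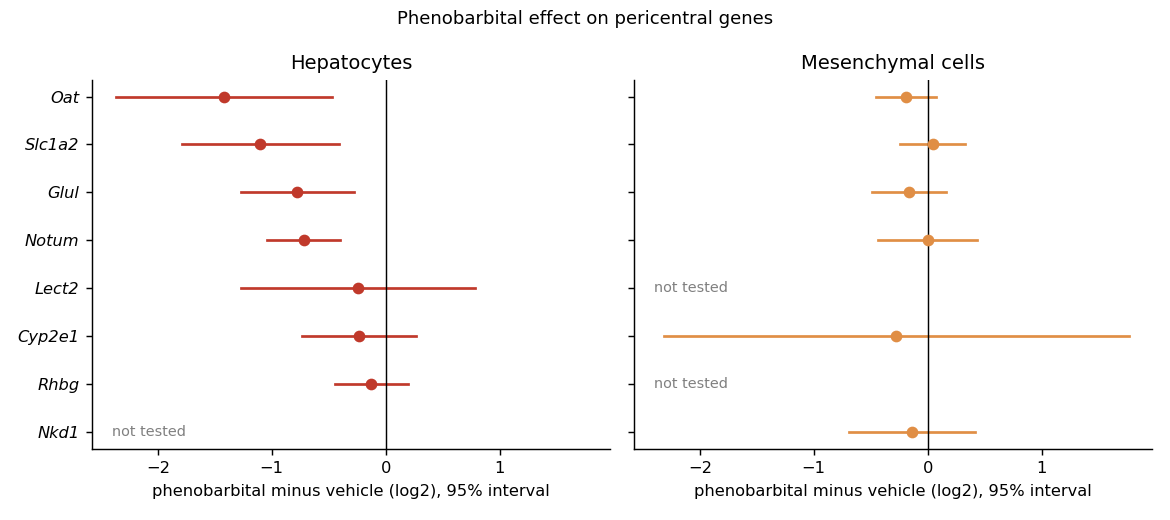
Log2 difference of phenobarbital minus vehicle with its 95% interval (x axis) for each member tested in hepatocytes (left panel) or in mesenchymal cells (right panel). In hepatocytes the intervals of Oat, Slc1a2, Glul and Notum lie below 0, and in mesenchymal cells every interval includes 0.

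Markers of other cells in the hepatocyte arrays bear on Glul, which was higher in the mesenchymal fraction. The mean over 11 Kupffer cell markers was 6.08, 5.92 and 6.53 in the phenobarbital hepatocyte arrays and 6.30, 6.23 and 6.27 in the vehicle arrays, with 6 of the markers below the 40th percentile in all phenobarbital arrays and 5 in all vehicle arrays. The mean over 12 endothelial markers was 6.51, 6.28 and 6.74 under phenobarbital and 6.50, 6.44 and 6.53 under vehicle. Phenobarbital array 3 was the highest of the 6 in both lists and the highest of the phenobarbital arrays in Glul, Slc1a2 and Rhbg. Between mesenchymal cells and hepatocytes, Slc1a2 differed by −0.03 in vehicle mice and was higher in mesenchymal cells under phenobarbital (1.12). Rhbg lay below the percentile in all mesenchymal arrays. In Oat, Notum, Cyp2e1 and Lect2 phenobarbital array 2 was the highest of the phenobarbital arrays. The part of Kupffer and endothelial cells in the Glul difference was not tested. The hepatocyte marker means ran from 14.03 to 14.10 under phenobarbital and from 14.08 to 14.13 under vehicle.

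Other genes of the zone and the pathway were read from lists chosen with earlier results of these data known. Further pericentral genes had no common direction. Of 15 tested, 10 had negative and 5 positive differences, none passed, and their median was −0.11, against −0.72 over the 7 tested members and −0.0038 over all 8117 tested genes. In 5 of the 15 the groups did not overlap, 2 lower and 3 higher, where 15.1% of all tested genes had such a gap in either direction. Gulo, the last enzyme of vitamin C synthesis, read 8.86, 10.37 and 10.64 under phenobarbital and 11.02, 10.98 and 11.60 under vehicle, with no overlap (−1.24, SE 0.43). Gstm3, a glutathione transferase, read 10.98, 12.22 and 10.68 under phenobarbital and 10.26, 9.70 and 10.13 under vehicle, also with no overlap but in the opposite direction (1.26, SE 0.37). The other 3 were Gstm1, another glutathione transferase (0.74, SE 0.25), Aldh1a1, which oxidises retinal (0.31, SE 0.10), and Slc13a3, a dicarboxylate transporter (−0.45, SE 0.18). Cyp7a1, the rate-limiting enzyme of bile acid synthesis, had overlapping groups (−0.82, SE 0.76; −1.41 without vehicle array 1). Lgr5 and Sp5, both direct Wnt targets, lay too low in hepatocytes to be tested.

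Genes of the Wnt pathway itself had a median close to that of all genes. Of 23 tested in hepatocytes none passed, 14 were negative and 9 positive, and the median was −0.02. In 3 of the 23 all phenobarbital arrays lay below all vehicle arrays, where 8.14% of all tested genes did so. Ctnnb1, which encodes beta-catenin, had a difference of −0.01 (SE 0.08), and the nuclear partner Tcf7l2 one of −0.03 (SE 0.16). Myc and cyclin D1, both counted among Wnt targets in several tissues, were the widest negative ones. Myc read 6.91, 7.23 and 7.37 under phenobarbital and 9.0, 7.91 and 8.0 under vehicle (−1.13, SE 0.28), and Ccnd1 read 7.84, 7.98 and 8.05 under phenobarbital and 8.36, 8.51 and 8.78 under vehicle (−0.59, SE 0.12). Neither overlapped, and neither passed (limma adjusted p 0.433 for Myc and 0.317 for Ccnd1). The remaining pathway gene without overlap was the kinase gene Gsk3b (−0.22, SE 0.08, limma adjusted p 0.560). Vehicle array 1 was the highest in Myc, and without it the differences were −0.78 for Myc and −0.69 for Ccnd1. The receptor Fzd4 had the widest positive difference, 0.36 (SE 0.18; 0.17 without vehicle array 1), with overlapping groups.

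Other enzymes and transporters of glutamine and ammonia, 12 of them tested, had a median of −0.02, and none passed. In 3 of the 12 all phenobarbital arrays lay below all vehicle arrays, as in 8.14% of all tested genes. Asns, which makes asparagine from glutamine, had the widest difference. It read 6.61, 6.90 and 7.42 under phenobarbital and 8.53, 8.03 and 8.02 under vehicle (−1.21, SE 0.23; limma adjusted p 0.249; −1.04 without vehicle array 1). Got1, the cytosolic aspartate aminotransferase, had −0.30 (SE 0.17; −0.49 without vehicle array 1), and Aldh4a1 of proline breakdown had −0.29 (SE 0.09). Periportal genes, the opposite zone, had a median of 0.05 over 13 tested, and none passed there either. Apoa4 had the widest value, 0.73 (SE 0.11), and Cdh1 one of −0.37 (SE 0.27; −0.03 without vehicle array 1). By array, the mean over 14 periportal genes was 12.55, 12.36 and 12.38 under phenobarbital and 12.40, 12.39 and 12.37 under vehicle. Phenobarbital array 1, the lowest array in most of the tested members, had the highest periportal mean. The mean over 17 further pericentral genes was lowest there (9.76, against 10.47 and 10.26 in the other phenobarbital arrays and 10.17 to 10.51 in the vehicle arrays). This array was singled out by its member readings, and a link between these means was not tested.

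**Figure D3:**
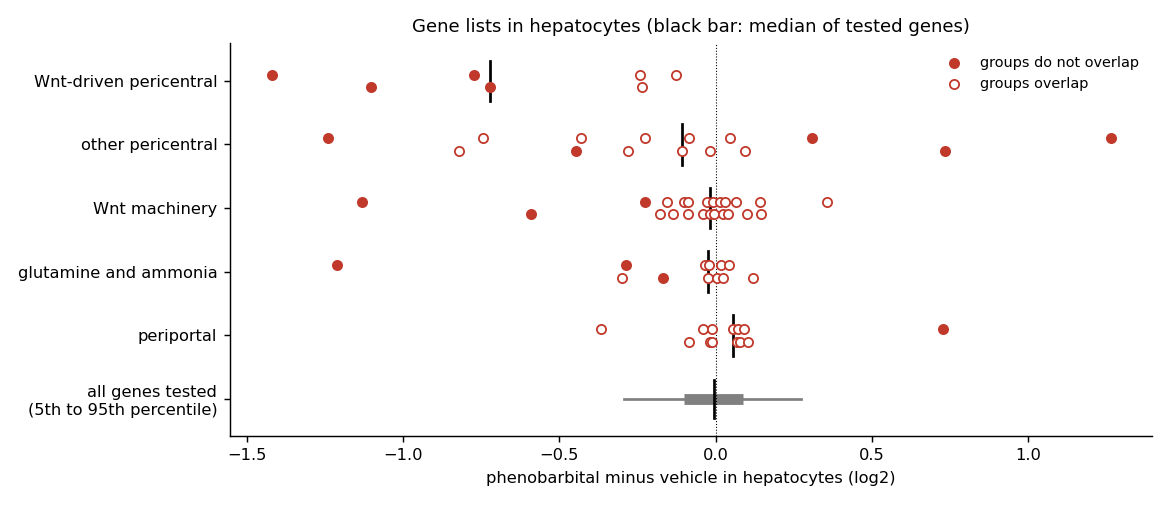
Log2 difference of phenobarbital minus vehicle in hepatocytes (x axis) for every tested gene of each list, filled where the 3 phenobarbital and 3 vehicle arrays do not overlap, with the list median as a black bar. The 7 tested Wnt-driven pericentral genes all lie below 0 with a median of −0.72, and the grey bar of all genes spans the 5th to 95th percentile, −0.29 to 0.27, with its thick part from the 25th to the 75th.

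Nearness of expression profiles was described over the 6 hepatocyte arrays, after centring each gene on its mean. The 5 genes with the smallest root mean squared difference from the median profile of the tested members were Npr2 (0.11), Ube2e2 (0.12), Ccnd1 (0.16), Hivep1 (0.16) and Tle1 (0.16). The nearest to Glul were Chac1 (0.12), Smox (0.15) and Ccnd1 (0.20). Npr2 read 7.24, 7.85 and 7.92 under phenobarbital and 7.85, 8.11 and 8.48 under vehicle, so phenobarbital array 1 was its lowest and vehicle array 3 its highest, as in most members. Within the members, Glul and Notum were the closest pair (0.19), and Slc1a2 and Lect2 the farthest apart (0.87). These distances are a description over 6 arrays and carry no test.

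The same comparison was made in mesenchymal cells. Of 6 tested members none passed, and none of the 8003 genes tested did (0.0% in limma; 232 or 2.9% had an unadjusted p under 0.05, and none of these were members). The groups overlapped in all 6 members, where 7.7% of the tested genes had groups that did not. Glul read 12.12, 12.07 and 12.14 in phenobarbital mesenchymal cells and 11.99, 12.29 and 12.53 in vehicle mesenchymal cells, a difference of −0.16 with a 95% interval from −0.49 to 0.16. Oat read 10.74, 10.59 and 10.47 under phenobarbital and 10.95, 10.80 and 10.64 under vehicle (−0.19, interval −0.45 to 0.07). Slc1a2 read 7.62, 7.92 and 7.58 under phenobarbital and 7.79, 7.63 and 7.56 under vehicle (0.05, interval −0.24 to 0.33). Without vehicle array 1 the differences were −0.30 for Glul, −0.12 for Oat and 0.11 for Slc1a2, and none of the 6 members passed.

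The feedback genes Notum and Nkd1 were also tested in mesenchymal cells. Notum read 7.07, 6.98 and 6.52 under phenobarbital and 6.93, 7.03 and 6.62 under vehicle, with the same mean in both groups and an interval of the difference from −0.43 to 0.43. Array 3 of each group lay below the 40th percentile, where differences are rough. Nkd1 read 6.43, 6.72 and 7.02 under phenobarbital and 6.50, 6.83 and 7.26 under vehicle (−0.14, interval −0.69 to 0.41; −0.32 without vehicle array 1). Rhbg (6.08 to 6.35 under phenobarbital, 6.24 to 6.45 under vehicle), Axin2 (5.79 to 6.09 under phenobarbital, 5.70 to 5.99 under vehicle) and Tbx3 (5.17 to 5.36 under phenobarbital, 5.14 to 5.35 under vehicle) were below the 40th percentile in all 6 mesenchymal arrays, and Lect2 in 5 of them, so none of these 4 was tested. The second Axin2 probe set, far below the percentile, read 4.18, 4.15 and 4.23 under phenobarbital and 4.09, 3.93 and 4.08 under vehicle, the one member probe set without overlap in this fraction.

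The difference of the effects was tested over all 12 arrays, as the effect in hepatocytes minus that in mesenchymal cells. It was −1.23 for Oat (SE 0.49), −1.15 for Slc1a2 (SE 0.36), −0.72 for Notum (SE 0.24) and −0.61 for Glul (SE 0.28). None passed over the 9031 genes of this fit, with limma adjusted p between 0.870 and 0.897 for these 4 genes, and 0.0% of all genes passed. An unadjusted p under 0.05 was reached by Oat, Slc1a2 and Notum, 3 of the 8 members tested, and by 5.45% of all genes. Without both vehicle samples numbered 1 the values were −1.60, −1.31, −0.86 and −0.56, and the limma adjusted p of the 4 genes lay between 0.895 and 0.945.

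**Figure D4:**
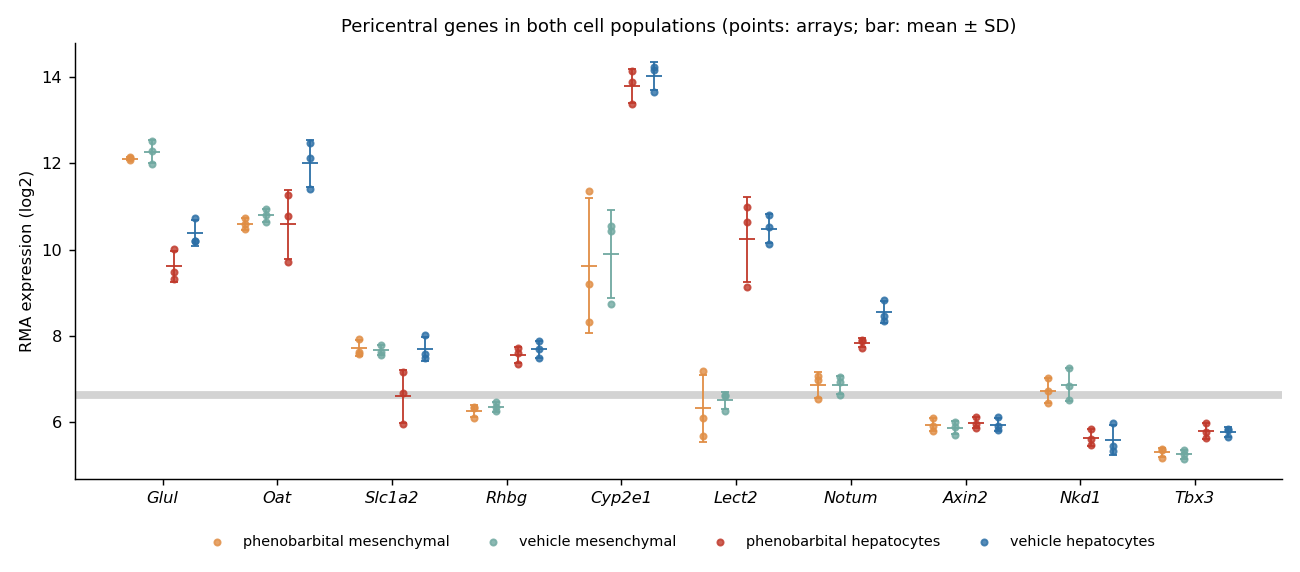
RMA expression (log2, y axis) of each member in the 4 groups, with arrays as points, group means as bars and SD as whiskers; the grey band marks the 40th percentiles of the 12 arrays. Glul is higher in mesenchymal cells and Cyp2e1 and Notum in hepatocytes, while Lect2 and Rhbg in vehicle mesenchymal cells and Nkd1 in hepatocytes lie below the percentile.

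The levels of the members in the 2 populations of vehicle mice were compared next. Of 8 members tested, limma called 5 lower and 2 higher in mesenchymal cells, where 40.7% of all genes were lower and 42.0% were higher, and the 7 calls stand beside 82.7% of all genes. Lect2, Rhbg and Nkd1 entered this fit only through the population where they read higher and lay below the 40th percentile in all 3 vehicle arrays of the other, so these counts support nothing about the members. For such genes the lower group was set to the array's percentile and the difference is given as a bound.

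Cyp2e1, Notum and Oat were measured in both populations and were lower in mesenchymal cells. Cyp2e1 averaged 9.90 ± 1.02 in vehicle mesenchymal cells and 14.03 ± 0.31 in vehicle hepatocytes (SD, n = 3 each), a difference of −4.13 (SE 0.68), with a limma adjusted p of 0.000136. Notum fell to 6.93, 7.03 and 6.62 in vehicle mesenchymal cells, against 8.35, 8.46 and 8.84 in vehicle hepatocytes (−1.69, SE 0.17; limma adjusted p 2.26e-06). Oat read 10.95, 10.80 and 10.64 in vehicle mesenchymal cells and 11.41, 12.13 and 12.48 in vehicle hepatocytes (−1.21, SE 0.34; limma adjusted p 0.00668). Without both vehicle samples numbered 1 these differences were −3.72, −1.83 and −1.58.

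Lect2 and Rhbg were not above the percentile in vehicle mesenchymal cells. Lect2 averaged 6.50 ± 0.20 in vehicle mesenchymal cells and 10.49 ± 0.33 in vehicle hepatocytes (SD, n = 3 each), at least 14.2-fold lower (limma adjusted p 7.29e-06). Rhbg averaged 6.34 ± 0.11 in vehicle mesenchymal cells and 7.68 ± 0.19 in vehicle hepatocytes, at least 2.03-fold lower (limma adjusted p 1.68e-06).

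Glul was higher in mesenchymal cells. It read 11.99, 12.29 and 12.53 in vehicle mesenchymal cells and 10.21, 10.20 and 10.74 in vehicle hepatocytes, without overlap. The difference was 1.89 (SE 0.20; 1.94 without both samples numbered 1), or 3.71-fold higher, with a limma adjusted p of 3.05e-06, and the other Glul probe set gave 1.43 (SE 0.26). Macrophages and endothelial cells are also known to make glutamine synthetase. Nkd1 read 6.50, 6.83 and 7.26 in vehicle mesenchymal cells, where array 1 was below the percentile, and 5.98, 5.33 and 5.44 in vehicle hepatocytes, all below it, so it was at least 1.27-fold higher in mesenchymal cells (limma adjusted p 0.000284). Slc1a2 did not pass, with 7.79, 7.63 and 7.56 in vehicle mesenchymal cells and 7.49, 7.57 and 8.01 in vehicle hepatocytes (−0.03, 95% interval −0.59 to 0.53).

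Under phenobarbital the same contrast called 4 members lower and 3 higher in mesenchymal cells, against 40.9% and 42.2% of all genes. In all, 7 of 8 members and 83.1% of all genes were called. Lect2, Rhbg and Nkd1 again entered only through 1 population, so these counts also support nothing about the members. Both contrasts rest on the same fit. Slc1a2 was called higher in mesenchymal cells there, with 7.62, 7.92 and 7.58 in phenobarbital mesenchymal cells and 6.67, 5.94 and 7.16 in phenobarbital hepatocytes (1.12, SE 0.25; limma adjusted p 0.00156). Oat was not called under phenobarbital (0.02, SE 0.34, 95% interval −0.74 to 0.78), with 10.74, 10.59 and 10.47 in phenobarbital mesenchymal cells and 9.71, 11.26 and 10.78 in phenobarbital hepatocytes. Glul was 5.67-fold higher in mesenchymal cells (2.50, SE 0.20; limma adjusted p 2.52e-07). That Oat and Slc1a2 were called in one treatment and not in the other is not a tested difference; the test of it is the difference of effects above, which neither passed.

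The order of the 4 groups therefore differed by gene. For Glul both mesenchymal groups stood above both hepatocyte groups, with vehicle over phenobarbital in each, though in mesenchymal cells that step was within the spread of the arrays. For Oat, vehicle hepatocytes stood alone at the top, and the means of phenobarbital hepatocytes, phenobarbital mesenchymal cells and vehicle mesenchymal cells, 10.58 ± 0.79, 10.60 ± 0.13 and 10.80 ± 0.15 (SD, n = 3 each), were not separated beyond their spread. For Slc1a2, phenobarbital hepatocytes stood alone at the bottom, at 6.59 ± 0.62, and the other group means ran from 7.66 to 7.71. Notum averaged 7.83 ± 0.11 in phenobarbital hepatocytes and 8.55 ± 0.26 in vehicle hepatocytes, and both mesenchymal groups stood lower, at 6.86. Axin2 lay between 5.86 and 5.98 in all 4 groups and Tbx3 between 5.24 and 5.79.

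Hepatocyte markers were also read in the mesenchymal arrays, beside Cyp2e1 and Lect2. The mean over 11 hepatocyte markers was 11.38, 10.18 and 9.99 in the phenobarbital mesenchymal arrays and 9.53, 10.52 and 10.37 in the vehicle mesenchymal arrays. Cyp2e1 read 11.37, 9.20 and 8.31 under phenobarbital and 8.73, 10.42 and 10.55 under vehicle. Phenobarbital array 1 was the highest of these 6 in the markers, in Cyp2e1 and in Lect2 (7.18, against 5.68 to 6.62 in the other arrays). Cyp2e1 had the same order as the markers within the phenobarbital arrays and, like them, was lowest of the vehicle arrays in array 1. Lect2 did not follow the markers among the vehicle arrays, since vehicle array 1, the lowest in the markers, read 6.62 and vehicle array 2, the highest of the vehicle arrays in the markers, read 6.26. Glul showed no such order, since phenobarbital array 1 read 12.12 among values from 11.99 to 12.53. All 11 hepatocyte markers lay above the 40th percentile in at least 1 array of each mesenchymal group, and their part in the Cyp2e1 and Lect2 readings was not tested. The Cyp2e1 difference between phenobarbital and vehicle mesenchymal cells, −0.27, had an interval from −2.32 to 1.77 and was −0.86 without vehicle array 1.

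**Figure D5:**
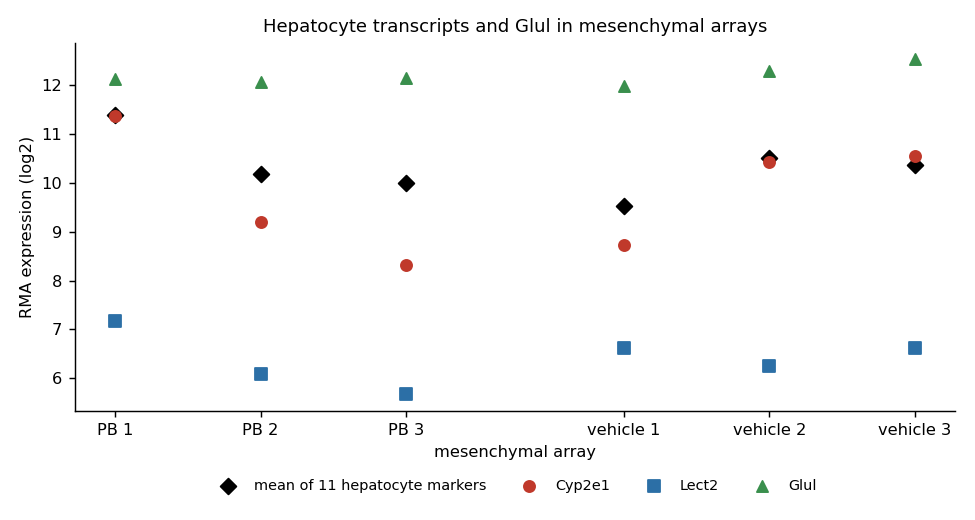
RMA expression (log2, y axis) of Cyp2e1, Lect2, Glul and the mean of 11 hepatocyte markers in each mesenchymal array of phenobarbital (PB, left) and vehicle mice (right). Phenobarbital array 1 is highest in the marker mean, Cyp2e1 and Lect2, while Glul stays between 11.99 and 12.53.

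Among genes of Wnt ligands and their secretion, Wnt2 and Wls read higher in the mesenchymal fraction and the ligand Wnt4 read lower. Wnt4 averaged 6.84 in vehicle mesenchymal cells and 7.37 in vehicle hepatocytes. Its difference was −0.53 (SE 0.15), with a limma adjusted p of 0.00524. Wnt2, a ligand made by liver endothelial cells, read 10.27, 10.16 and 11.32 in phenobarbital mesenchymal cells and 10.66, 11.02 and 11.43 in vehicle mesenchymal cells, with overlapping groups (−0.45). In vehicle hepatocytes Wnt2 lay below the 40th percentile in all 3 arrays (5.30, 6.09 and 6.13), so that it was at least 22.2-fold higher in vehicle mesenchymal cells. Wls, which carries Wnt ligands to the cell surface, averaged 9.99 in vehicle mesenchymal cells and 5.68, below the percentile, in vehicle hepatocytes, and was at least 10.8-fold higher. Of the 4 ligand and secretion genes tested between phenobarbital and vehicle mesenchymal cells none passed, with values from −0.45 to 0.07. In that fraction 17 of 27 tested Wnt pathway genes were higher than in hepatocytes of vehicle mice and 8 were lower. Over all genes 42.0% were higher and 40.7% lower. Bcl9, Lrp5, Dvl2 and Dkk3 entered this fit only through mesenchymal cells, and Fzd2, Dvl3 and Sfrp1 only through hepatocytes. The counts therefore support nothing about the pathway. Ccnd1 (2.33), Apc (1.98) and Tcf7l2 (1.68) were among the widest differences. Bcl9, below the percentile in hepatocytes, was at least 1.71-fold higher. Of 15 further pericentral genes 14 were lower in mesenchymal cells and 1, Ahr, was higher, where 40.7% of all genes were lower. Cyp7a1, Cldn2, Gulo and Slc13a3 entered this fit only through hepatocytes, so this count supports nothing about the list. The differences were −5.64 for Slco1b2, −5.11 for Cyp1a2 and −5.06 for Rgn. Gulo, below the percentile in mesenchymal cells, was at least 23.2-fold lower.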

How the data were processed

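The deposited table holds log2 expression values on 12 arrays; per the submitters' processing notes they were made with RMA, whose software and version the sources used here do not state. No scan date or batch is given, so no batch was tested. Values near the floor and the ceiling are compressed. Of the probe sets, 20380 had 1 gene symbol, 691 several and 1555 none; the probe set with the highest mean stood for each gene, the other member probe sets are given beside it. The models were fitted by limma 3.58.1 under R 4.3.3, calling lmFit and then eBayes with its trend option. Genes had to exceed the 40th percentile on 3 or more arrays entering a fit, and p-values were adjusted over all genes tested. Within a population 6 arrays were used, otherwise 12. The fits were tested on simulated data. All members were named, from each other list genes past the threshold or the widest differences, and 5 and 3 near profiles. Ctnnb1, Tcf7l2, Gsk3b, Lgr5, Sp5 and Ahr were named after their values were seen. Members and lists were chosen with earlier results of these data known. Deviations from group means correlated between same-numbered vehicle samples of both populations at 0.226, 0.213 and 0.178, each highest with its own number. Between same-numbered phenobarbital samples of both populations they ran from −0.062 to 0.072, none highest with its own number. The labels do not say whether such samples are pairs. The values given come from the fit without a replicate block, as designed, and no member's call changed with that block. Between phenobarbital and vehicle hepatocytes the correlations ran from −0.080 to −0.039. Alternatives changed the filter, scaling, probe set rule, variance model, replicate block and arrays used.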

Additional observations from a re-analysis of the deposited data

How the results depend on the processing

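No member passed in either phenobarbital comparison or in the difference of effects under any alternative run, and 7 of 8 passed between populations in vehicle mice under each but 2: with no filter 8 of 10 passed, and the filter at the 60th percentile left 5 members to test, all called. Between populations under phenobarbital 7 of 8 passed, 8 of 10 with no filter and 4 of 5 with the filter at the 60th percentile. The median over the members in hepatocytes, −0.72, was −0.24 with no filter, which adds the 3 low members, and −0.48 with all 12 arrays in 1 fit, which adds Nkd1. With 1 array left out it ran from −0.82 to −0.58. Notum in mesenchymal cells had the same mean in both groups, so its sign was not judged and its values were counted as kept. With 1 array left out its difference ran from −0.12 to 0.17. Of 738 values of single members under an alternative, 709 were counted as keeping direction and side of the threshold. The other 29 changed sign, none of them passing. These were Lect2 in hepatocytes (−0.61 to 0.32 with 1 array left out), Cyp2e1 (−1.15 to 0.38), Nkd1 (−0.32 to 0.0582) and Slc1a2 (−0.0608 to 0.11) in mesenchymal cells, and in the difference of effects Cyp2e1 (−0.62 to 0.91), Lect2 (−0.43 to 0.50), Nkd1 (−0.0131 to 0.39) and Rhbg (−0.13 to 0.0722, and 0.063 without both vehicle arrays numbered 1). Between populations they were Slc1a2 in vehicle mice (−0.13 to 0.13) and Oat under phenobarbital (−0.42 to 0.36, and −0.21 with array medians subtracted). Array medians subtracted also moved the median over all genes between vehicle populations to −0.20, against 0.02.

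With the replicate number as a block, 0 members passed in hepatocytes and 7 between populations in vehicle mice. Treating same-numbered samples as pairs changed no call there, also not with the block set within treatment. The smallest limma adjusted p of Glul in hepatocytes over the alternatives at gene level, 0.0993, came with the replicate block, and its highest was 0.757. Over all genes, 4 passed in hepatocytes, 1 with all 12 arrays in 1 fit, 9 with every probe set tested and 1 to 5 with 1 array left out. In the difference of effects 0 passed in limma and up to 1 with 1 array left out. With 3 arrays a group, precision is limited throughout.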
